A study of Homo sapiens with 4 samples.

Results

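The genes described here are 10 named members of the cell death machinery: 9 genes of the BCL2 family (BCL2, BCL2L1, MCL1, BCL2A1, BAK1, BCL2L11, BID, BAD and BIK) and TNFRSF10B, the gene of death receptor 5. They were chosen by name among 58735 genes, and each name matched a single row. RNA was sequenced in 4 libraries, 1 per group, from OMM2.3, a cell line of human uveal melanoma that was set up from a metastasis in the liver. All cells grew in medium with 10% fetal bovine serum. The groups were cells given CCCP and DHA together (the combination), cells given CCCP alone, cells given DHA alone, and control cells. CCCP is an uncoupler that carries protons across the inner mitochondrial membrane and collapses its potential. What DHA stands for, the doses and times, and what the control cells received were each not given in the sources used here.

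Proteins of the BCL2 family decide whether the outer mitochondrial membrane stays intact. Survival members (BCL2, BCL-XL from BCL2L1, MCL1 and BFL-1 from BCL2A1) hold the pore-forming effectors BAK and BAX in check. BH3-only members (BIM from BCL2L11, BID, BAD and BIK) bind the survival proteins or the effectors and favour pore formation and release of cytochrome c. Death receptor 5 binds the ligand TRAIL at the cell surface and recruits FADD and caspase 8, and its gene is a known target of the stress factor CHOP, the product of DDIT3. Caspase 8 cleaves BID, which ties the receptor route to the mitochondrial one. Many of these proteins are controlled after transcription, and several genes make both long and short isoforms. RNA levels per gene do not tell these apart.

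Levels are given as FPKM, fragments per exon kilobase after scaling for library size, as the authors deposited them. A level per kilobase allows genes to be compared within a library. Intervals in parentheses are 95% exact intervals from read counts recovered from the FPKM values. They cover counting error only, since 1 library per group leaves no spread between replicates, and no test of 1 library against another was made. A gene was counted as measured when it reached 1 FPKM in at least 1 library, which held for 13678 genes and for 7 of the 10 members. Log2 ratios are of FPKM + 0.5.

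The libraries held 16900411 to 18937286 reads over all genes. The melanocyte markers of the line were sparse, with 6 of 11 at 1 FPKM or more and MITF between 5.01 and 8.89 FPKM. None of 7 leukocyte markers and none of 5 endothelial markers reached 1 FPKM. Of 7 fibroblast markers 3 did, and their list summed to 8.97 FPKM in the combination, 20.3 FPKM with CCCP, 18.6 FPKM with DHA and 32.5 FPKM in control cells. Of 6 epithelial markers only KRT8 and KRT18 did, and that list summed to 267 FPKM in the combination, 298 FPKM with CCCP, 344 FPKM with DHA and 375 FPKM in control cells.

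Promoter sequences were read for 2 of the members that differed most between libraries, BCL2L1 in the combination and BCL2L11 with CCCP. They are the 250 bases before an annotated start, from RefSeq on GRCh38.p14, printed on the gene's own strand. Capitals mark letters of a searched motif. The BCL2L1 stretch lies at chr20:31723964-31724213 on the minus strand and the BCL2L11 stretch at chr2:111120664-111120913 on the plus strand.
BCL2L1: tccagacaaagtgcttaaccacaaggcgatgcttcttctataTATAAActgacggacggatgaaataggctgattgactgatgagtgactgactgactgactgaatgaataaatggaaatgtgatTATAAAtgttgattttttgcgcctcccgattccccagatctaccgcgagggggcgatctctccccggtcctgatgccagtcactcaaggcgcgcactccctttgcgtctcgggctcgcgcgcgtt
BCL2L11: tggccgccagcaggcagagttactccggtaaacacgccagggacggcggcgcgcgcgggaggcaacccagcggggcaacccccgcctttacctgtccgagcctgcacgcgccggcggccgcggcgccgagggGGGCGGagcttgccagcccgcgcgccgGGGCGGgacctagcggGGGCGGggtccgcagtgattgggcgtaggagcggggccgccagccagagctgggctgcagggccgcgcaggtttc
The BCL2L1 stretch holds TATAAA at 2 positions and no GC box (GGGCGG), while the BCL2L11 stretch holds the GC box at 3 positions and no TATAAA. BCL2L1 has a further window at another annotated start, not printed here. That window held a GC box 5 bases before its start and no TATAAA, so the contrast depends on the start chosen. Searched on both strands of windows from 250 bases before to 50 after the start, the GC box was present in 45% and TATAAA in 11.5% of all 35116 windows. The letters TGATGNAA, a core shared by C/EBP-ATF elements, were present in 3.62% of all windows, TGACGTCA in 1.85% and TGCAAT in 8.21%, and the matches in the stretches shown did not overlap. Of the 13 windows that 7 members have, 1 held TGATGNAA, in BCL2A1, and none held TGACGTCA or TGCAAT. No window was available for TNFRSF10B, MCL1 or BIK, so their promoters were not searched.

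Among survival genes, MCL1 and BCL2L1 made up nearly all of the RNA, and BCL2L1 differed more between libraries than MCL1. MCL1 (ENSG00000143384, chromosome 1, 150574551 to 150579738 on GRCh38), whose short-lived protein guards against BAK and BIM, was at 64.4 FPKM in the combination, 56.9 FPKM with CCCP, 59.4 FPKM with DHA and 64.9 FPKM in control cells. The combination and control levels differed by less than counting error, at 0.993-fold (0.955 to 1.03). Each compound alone had slightly less MCL1 than control, 0.877-fold (0.842 to 0.913) with CCCP and 0.916-fold (0.881 to 0.953) with DHA.

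BCL2L1 (ENSG00000171552, chromosome 20, 31664452 to 31723989) was at 42.5 FPKM in the combination, 27.1 FPKM with CCCP, 34.2 FPKM with DHA and 26.7 FPKM in control cells. The combination stood highest and DHA second, while CCCP and control overlapped within counting error. Against control the combination was 1.59-fold (1.49 to 1.69) and DHA 1.28-fold (1.20 to 1.36) higher, and CCCP was at 1.01-fold (0.944 to 1.09). The combination was 1.57-fold (1.47 to 1.68) above CCCP alone and 1.24-fold (1.17 to 1.32) above DHA alone. In bulk RNA, a difference in the share of cells of a kind and a difference in RNA per cell cannot be told apart. The antisense gene ABALON shares 1424 of the 3314 exon bases of BCL2L1 and had 20 to 39 reads of its own, against 1499 to 2432 for BCL2L1. Since the library kit leaves strand unmarked, reads in the shared bases cannot be assigned with certainty, and the BCL2L1 level carries that limit.

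The other survival genes were scarce. BCL2, the founding survival gene, was at 0.256 FPKM in the combination, 0.229 FPKM with CCCP, 0.311 FPKM with DHA and 0.214 FPKM in control cells, on 45 to 63 reads per library. These levels did not differ beyond counting error, the widest ratio being 1.45-fold (0.984 to 2.15) for DHA against control. BCL2A1, a survival gene amplified in some cutaneous melanomas, had 2 reads in control cells and 0 in each treated library. For scale, 3 reads of BCL2A1 would be 0.160 FPKM in the combination, 0.165 FPKM with CCCP and 0.160 FPKM with DHA.

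Within a library the make-up of the survival pool does not depend on scaling between libraries. MCL1 held 60.1% of the summed FPKM of the 4 survival members in the combination, 67.6% with CCCP, 63.3% with DHA and 70.6% in control cells. BCL2L1 held 39.7% in the combination, 32.2% with CCCP, 36.4% with DHA and 29.1% in control cells. The ratio of BCL2L1 to MCL1 was 0.660 in the combination and 0.412 in control cells, 1.60-fold (1.49 to 1.72) higher by an approximate 95% interval on the log odds of the reads. That ratio was 1.15-fold (1.07 to 1.25) above control with CCCP and 1.40-fold (1.29 to 1.51) above it with DHA.

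**Figure D1:**
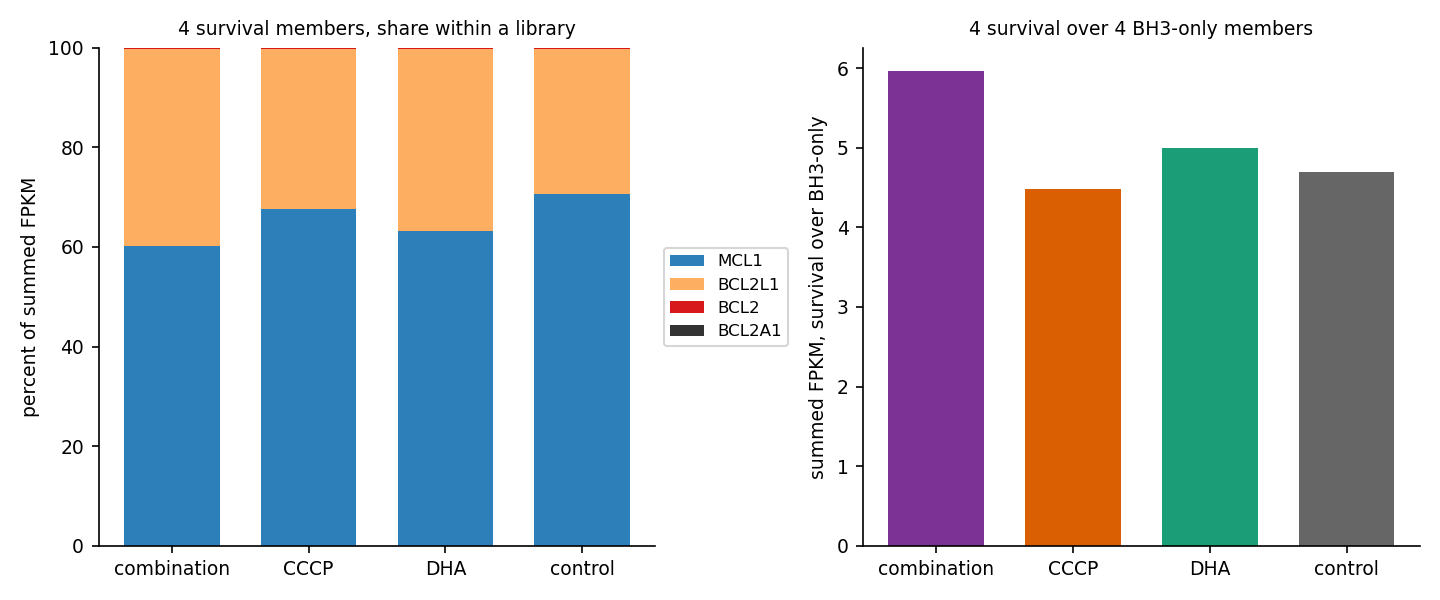
Left, share of each survival member in the summed FPKM of the 4, in percent, for the combination, CCCP, DHA and control libraries; right, summed FPKM of the 4 survival members over that of the 4 BH3-only members. MCL1 takes 60.1% of the pool in the combination and 70.6% in control cells, and the ratio at right is 5.96 in the combination and 4.70 in control cells. BH3-only genes outside the members, BBC3 and PMAIP1 among them, are not in the sum.

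Of the pore-forming effectors, BAK1 is the member measured here, and it differed little between libraries. Its level was 7.31 FPKM in the combination, 6.36 FPKM with CCCP, 6.90 FPKM with DHA and 7.85 FPKM in control cells. Of the 5 comparisons only CCCP against control lay outside counting error, at 0.810-fold (0.683 to 0.960). The processed pseudogenes BAK1P1 and BAK1P2 had at most 8 reads each, against 235 to 338 for BAK1. The partner effector gene BAX was more abundant, at 65.0 FPKM in the combination, 57.1 FPKM with CCCP, 59.5 FPKM with DHA and 54.1 FPKM in control cells. BAX exceeded BAK1 by 8.89-fold in the combination and by 6.89-fold in control cells, a ratio 1.29-fold (1.09 to 1.52) higher in the combination. BOK, a further effector-like gene, stood between 22.3 and 24.7 FPKM in the 4 libraries.

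Among BH3-only members, BCL2L11 differed most. BCL2L11 (ENSG00000153094, chromosome 2, 111119378 to 111168447), which encodes BIM, was at 2.42 FPKM in the combination, 1.53 FPKM with CCCP, 1.99 FPKM with DHA and 2.42 FPKM in control cells. It was thus low with CCCP, 0.633-fold (0.522 to 0.765) of control, somewhat low with DHA, 0.823-fold (0.691 to 0.979), and at the control level in the combination, 1.00-fold (0.849 to 1.18). The combination exceeded CCCP alone by 1.58-fold (1.30 to 1.93). The library kit leaves strand unmarked, and the opposite-strand gene MIR4435-2HG shares 727 of the 6658 exon bases of BCL2L11. MIR4435-2HG had 794 reads in the combination, 884 with CCCP, 908 with DHA and 1016 in control cells, so reads in the shared bases cannot be assigned with certainty. BCL2L11 itself rested on 170 to 313 reads.

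BID, the BH3-only gene whose product caspase 8 cleaves, was at 5.90 FPKM in the combination, 5.83 FPKM with CCCP, 7.34 FPKM with DHA and 6.74 FPKM in control cells. Both libraries with CCCP were lower than the 2 without it, with the combination at 0.876-fold (0.773 to 0.992) and CCCP at 0.865-fold (0.762 to 0.982) of control. BAD, a BH3-only gene whose product is held inactive by growth factor signalling, was at 9.30 FPKM in the combination, 11.1 FPKM with CCCP, 8.87 FPKM with DHA and 10.1 FPKM in control cells. No treated library of BAD differed from control beyond counting error. The opposite-strand gene GPR137 shares 404 of the 1708 exon bases of BAD and had 203 to 240 reads against 261 to 337 for BAD, so its level is uncertain. BIK, a BH3-only protein of the endoplasmic reticulum, had 6 reads in the combination, 5 with CCCP, 10 with DHA and 5 in control cells, too few to compare.

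The 4 BH3-only members summed to 18.0 FPKM in the combination, 18.8 FPKM with CCCP, 18.8 FPKM with DHA and 19.6 FPKM in control cells. The 4 survival members summed to 107 FPKM in the combination, 84.2 FPKM with CCCP, 93.9 FPKM with DHA and 91.9 FPKM in control cells. The survival sum was 5.96 times the BH3-only sum in the combination, 4.48 times with CCCP, 5.00 times with DHA and 4.70 times in control cells. These sums are of RNA and give no protein ratio. They leave out 6 further BH3-only genes examined, which summed to 106 FPKM in the combination and 156 FPKM in control cells. Of those, 3 lay above control in the combination, BBC3 and PMAIP1 among them, and 3 below. The ratio therefore describes only the members summed, and its direction can depend on which BH3-only genes are included.

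TNFRSF10B (ENSG00000120889, chromosome 8, 23020133 to 23069179) had the largest difference of the 7 measured members in the combination. Its level was 57.3 FPKM in the combination, 29.6 FPKM with CCCP, 34.4 FPKM with DHA and 33.7 FPKM in control cells, on 2547 to 5100 reads. The combination library stood alone at the top, and the other 3 lay between 29.6 and 34.4 FPKM. The combination was 1.70-fold (1.63 to 1.78) above control, 1.94-fold (1.85 to 2.03) above CCCP alone and 1.66-fold (1.59 to 1.74) above DHA alone. With either compound alone the gene was not above control beyond counting error: CCCP was at 0.877-fold (0.833 to 0.923) and DHA at 1.02-fold (0.973 to 1.07) of control. The opposite-strand gene RHOBTB2 shares 67 of the 5158 exon bases and had 209 reads in the combination, 309 with CCCP, 303 with DHA and 413 in control cells.

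**Figure D2:**
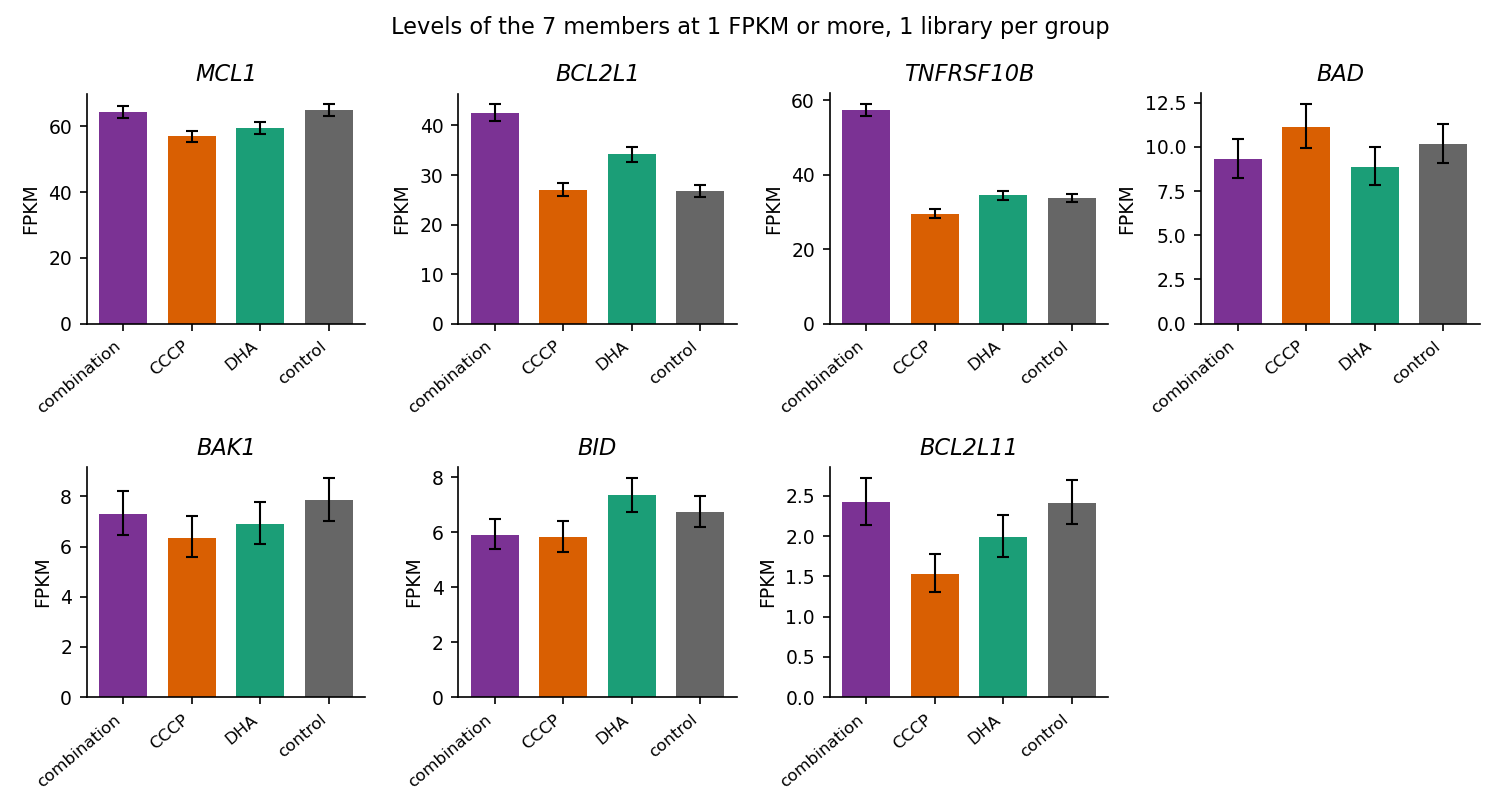
FPKM of the 7 measured members in the combination, CCCP, DHA and control libraries, 1 library each. Error bars are exact 95% Poisson intervals of the recovered reads and cover counting error only. TNFRSF10B reaches 57.3 FPKM and BCL2L1 42.5 FPKM in the combination, MCL1 stays between 56.9 and 64.9 FPKM, and BCL2L11 is lowest with CCCP at 1.53 FPKM.

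Among the TRAIL receptor genes examined (TNFRSF10A, TNFRSF10B, TNFRSF10C and TNFRSF10D), only TNFRSF10B had a measurable level in this line. TNFRSF10A, the gene of the other signalling TRAIL receptor, had 0 reads in the combination, 1 with CCCP, 0 with DHA and 1 in control cells. The decoy receptor genes TNFRSF10C and TNFRSF10D had at most 5 and 2 reads, and TNFSF10, the TRAIL gene itself, had 1 read in control cells and 0 elsewhere. FASLG, the Fas ligand gene, had 0 reads throughout, which allows at most 0.0951 FPKM (3 reads) in any library. Of the other death receptor genes, TNFRSF1A, the main tumour necrosis factor receptor, was at 34.5 FPKM in the combination, 40.5 FPKM with CCCP, 37.6 FPKM with DHA and 41.2 FPKM in control cells. TNFRSF10B exceeded TNFRSF1A by 1.66-fold in the combination and lay at 0.817 of it in control cells. FAS was at 7.34 FPKM in the combination, 6.97 FPKM with CCCP, 7.30 FPKM with DHA and 5.69 FPKM in control cells. TNFRSF21, the gene of death receptor 6, was 2.52-fold (2.17 to 2.93) higher in the combination and 1.71-fold (1.46 to 2.01) higher with CCCP than in control.

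**Figure D3:**
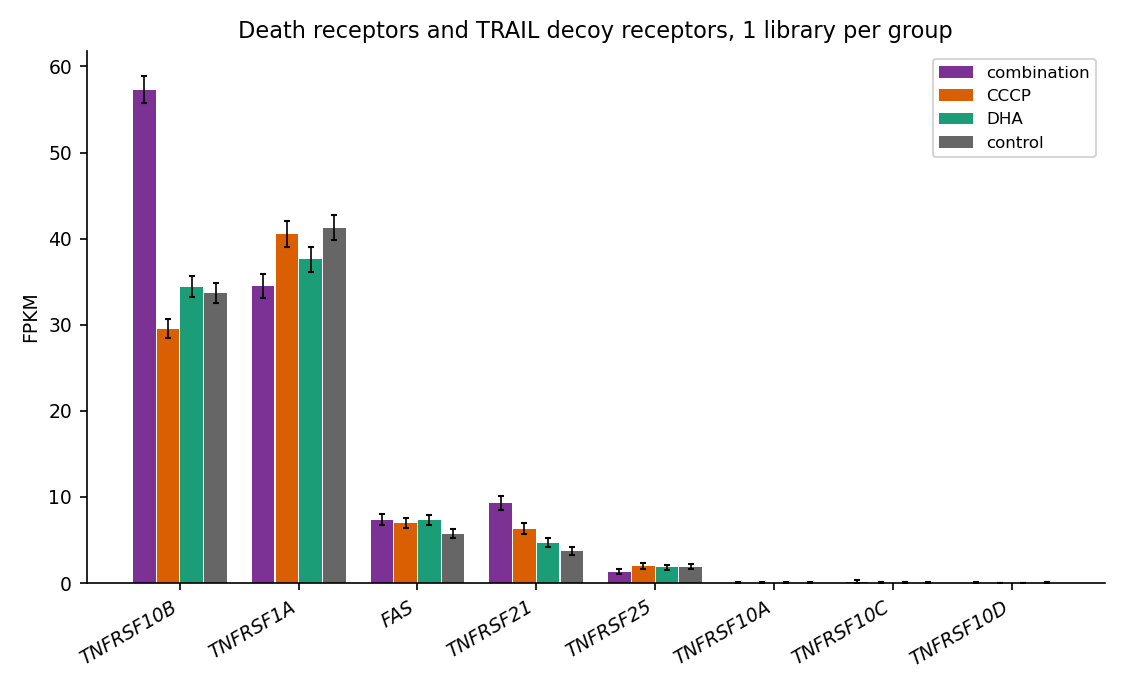
FPKM of death receptor and TRAIL decoy receptor genes, with bars for the combination, CCCP, DHA and control libraries from left to right. Error bars are exact 95% Poisson intervals of the recovered reads. TNFRSF10B stands at 57.3 FPKM in the combination and 33.7 FPKM in control cells, while TNFRSF10A, TNFRSF10C and TNFRSF10D stay near 0.

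Within each library the order of the members was nearly fixed. MCL1 was highest, followed by TNFRSF10B, BCL2L1 and BAD in all 4 libraries, and BCL2L11, BIK, BCL2 and BCL2A1 filled the last places. BAK1 preceded BID in all libraries except that with DHA, where BID was at 7.34 FPKM (6.74 to 7.97) and BAK1 at 6.90 FPKM (6.09 to 7.79), which overlap within counting error. In the DHA library TNFRSF10B and BCL2L1, at 34.4 and 34.2 FPKM, also did not differ beyond counting error. Among measured protein-coding genes, MCL1 lay at the 95.8th percentile of levels in the combination and the 95.6th in control cells, and TNFRSF10B at the 95.1th in the combination and the 90.9th in control cells.

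No member reached a 2-fold difference in any of the 5 comparisons, on log2(FPKM + 0.5). For the combination against control, 0 of 7 measured members were 2-fold higher, where 4.52% of all measured genes were, and 0 were 2-fold lower, where 5.44% were. For CCCP against control 3.21% of genes were 2-fold higher and 2.32% lower. For DHA against control 2.0% were higher and 1.86% lower. For the combination against CCCP 3.46% were higher and 4.94% lower, and for the combination against DHA 3.27% were higher and 3.63% lower. With 7 members, a count of 0 is close to what these shares would give. At 1.5-fold, TNFRSF10B and BCL2L1 were higher in the combination than in control (11.1% of genes) and than with CCCP alone (8.87% of genes), and TNFRSF10B was higher in the combination than with DHA alone (7.64% of genes). No member was 1.5-fold lower in the combination than in control (12.7% of genes), than with CCCP (12.4%) or than with DHA (9.38%). Against control no member was 1.5-fold higher or lower with CCCP (7.84% and 6.46% of genes) or with DHA (4.43% and 4.15%). These 1.5-fold counts are also on log2(FPKM + 0.5), and for BCL2L11 they depend on that scale. By FPKM alone BCL2L11 was 0.633-fold of control with CCCP, and 1.58-fold higher in the combination than with CCCP. On log2(FPKM + 0.5) those ratios were -0.52 and 0.53, short of 1.5-fold.

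Counting intervals excluded 1 more often. With CCCP against control 5 of 7 members lay below 1 (BAK1, BCL2L11, BID, MCL1 and TNFRSF10B), where 25.8% of genes did, and none lay above, where 25.8% did. With DHA against control, BCL2L1 lay above 1 (18.1% of genes) and BCL2L11 and MCL1 below it (17.2% of genes). In the combination against control, TNFRSF10B and BCL2L1 lay above 1 (30.8% of genes) and BID below it (29.3% of genes). In the combination against CCCP, TNFRSF10B, BCL2L1, BCL2L11 and MCL1 lay above 1 (29.4% of genes) and BAD below it (27.5%). In the combination against DHA the same 4 members lay above 1 (26.6% of genes) and BID below it (26.6%). The median log2 ratios of the 7 members to control were -0.01 in the combination, -0.19 with CCCP and -0.13 with DHA, beside medians over all measured genes of 0.01, 0 and 0. The 3 comparisons with control share the control library.

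**Figure D4:**
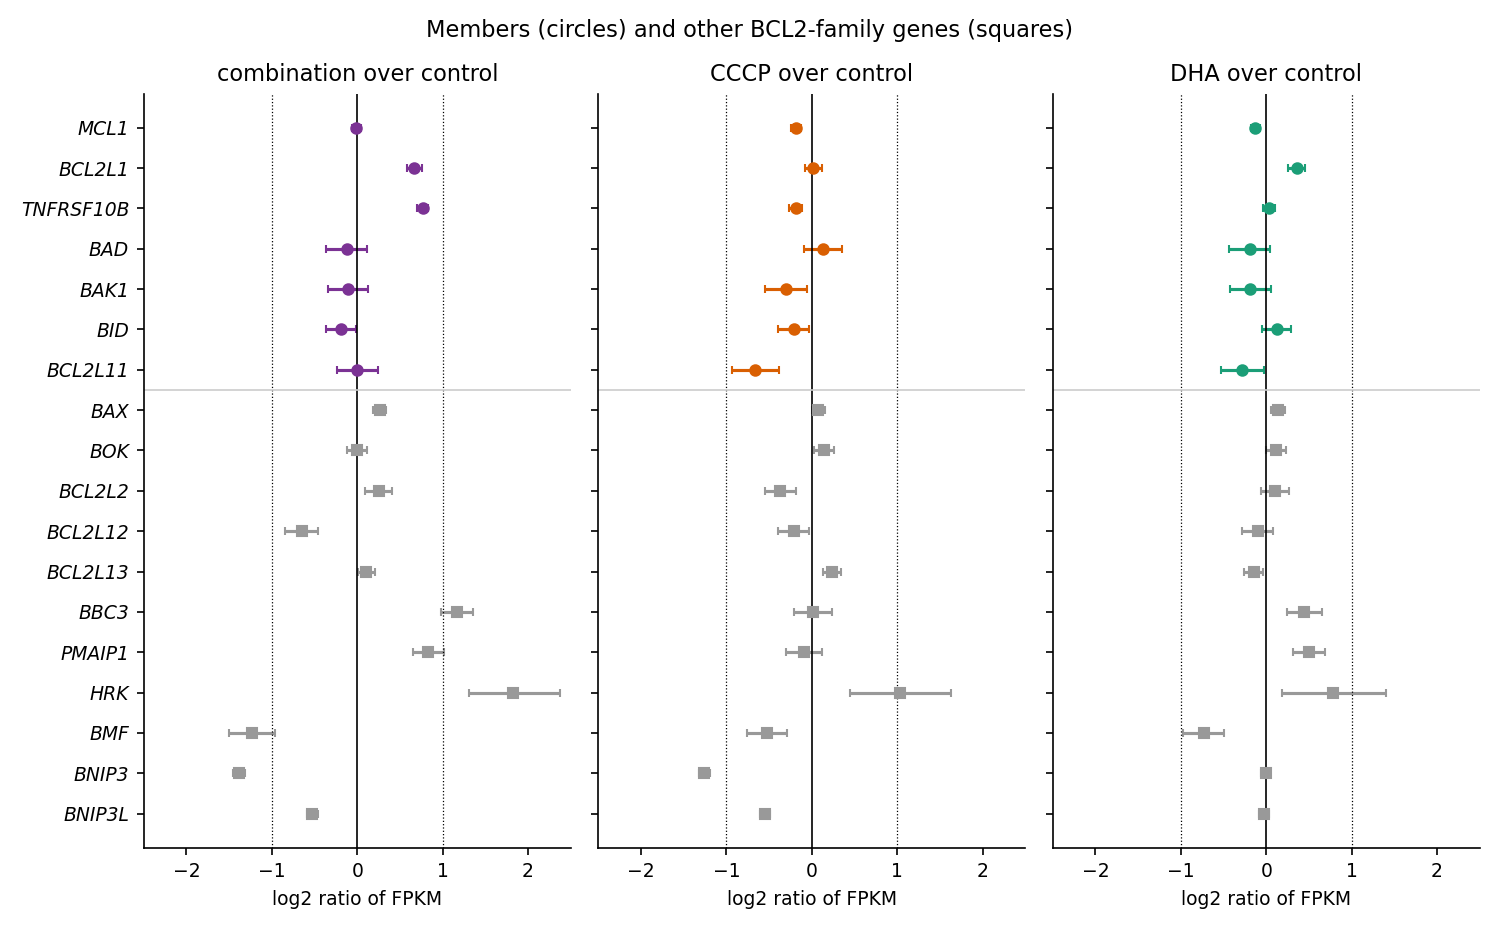
Log2 ratios of FPKM to control, without a pseudocount, for the 7 measured members (coloured circles) and other BCL2-family genes (grey squares), in the combination, with CCCP and with DHA. Bars are exact 95% counting intervals, and dotted lines mark 2-fold. All 7 members lie between the dotted lines in each panel, while in the combination BBC3 lies above 2-fold higher, at 2.24-fold, HRK at 3.55-fold, and BMF and BNIP3 lie below 2-fold lower.

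Since 2 libraries had CCCP and 2 had DHA, an additive fit of both effects was made with limma over all 13678 measured genes, with 1 residual degree of freedom. None of the 7 members passed an adjusted p of 0.05 for either compound, where 0.095% of genes passed for CCCP and 0.102% for DHA. At an unadjusted p under 0.05 the count was 0 members for CCCP, where 14.5% of genes passed, and 1 member, BCL2L1, for DHA, where 12.1% did. BCL2L1 had a DHA effect of 0.50 log2 (SE 0.15, adjusted p 0.335 by limma), being higher in both libraries with DHA. TNFRSF10B had a DHA effect of 0.49 log2 (SE 0.23, adjusted p 0.468 by limma). That value averages unlike log2 ratios of TNFRSF10B, 0.03 for DHA against control and 0.94 for the combination against CCCP. Voom on recovered reads also gave 0 members past an adjusted p of 0.05, and 0 for CCCP and 2 for DHA (BCL2L1 and TNFRSF10B) at an unadjusted p under 0.05. The smallest adjusted p of a member for DHA ranged over the alternatives from 0.0571 (BCL2L1, voom) to 0.738.

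The additive fit treats the departure from additivity as error, and that departure was itself sizeable for some members. If the log2 ratios of the single compounds are added, TNFRSF10B would have been at 30.2 FPKM in the combination, against 57.3 FPKM observed. Its departure was 0.91 log2 (0.82 to 1.01 by counting error), and 95.7% of measured genes had a smaller one. BCL2L11 departed by 0.75 log2 (0.46 to 1.05), with 1.23 FPKM from addition and 2.42 FPKM observed. BAK1 departed by 0.36 (0.04 to 0.68), MCL1 by 0.30 (0.22 to 0.39) and BCL2L1 by 0.29 (0.16 to 0.42), while BAD and BID had intervals that included 0. The departure was positive in 5 of 7 members and in 49.7% of all measured genes, and with no residual degree of freedom it has no test.

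**Figure D5:**
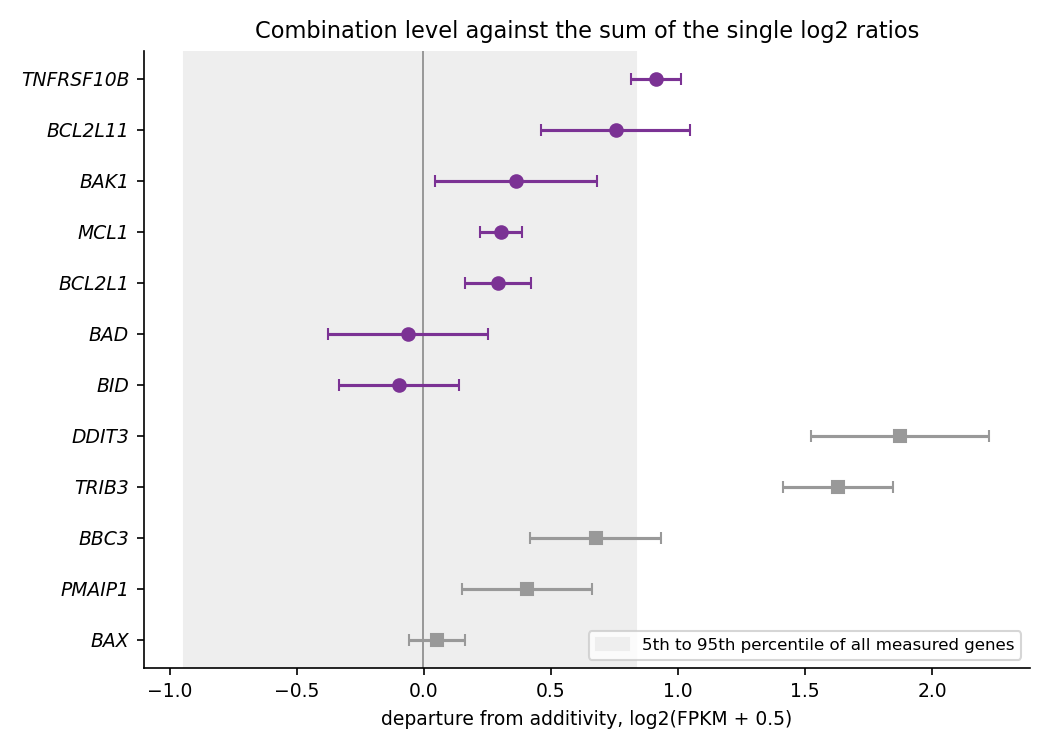
Departure of the combination from the sum of the single log2 ratios, on log2(FPKM + 0.5), for the 7 measured members (purple circles) and 5 other genes (grey squares). Bars are 95% counting intervals by error propagation, the grey band spans the 5th to 95th percentile of all 13678 measured genes, and the line is their median. TNFRSF10B lies at 0.91, just above the band, and DDIT3 lies at 1.87.

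The list of CHOP and unfolded protein response genes held both higher and lower genes in the same library. DDIT3, which encodes CHOP, was at 63.0 FPKM in the combination, 7.37 FPKM with CCCP, 12.7 FPKM with DHA and 5.50 FPKM in control cells. Of 13 genes on the CHOP and unfolded protein response list, 7 were at least 2-fold higher in the combination (4.52% of all measured genes) and 0 were 2-fold lower (5.44%), and the list's median log2 ratio was 1.71, beside 0.01 over all genes. Of the other 6, 2 lay below control: ERO1A, an oxidase of the endoplasmic reticulum, at 13.7 FPKM in the combination and 26.5 FPKM in control cells (0.518-fold, 0.489 to 0.548), and EIF2AK3, which encodes the stress sensor PERK, at 2.69 FPKM in the combination and 5.07 FPKM in control cells (0.530-fold, 0.455 to 0.617). In the DHA library DDIT3 was 2.31-fold (1.88 to 2.85) and TNFRSF10B 1.02-fold (0.973 to 1.07) of control. XBP1, a factor of the unfolded protein response, was at 44.5 FPKM in the combination, 19.2 FPKM with CCCP, 29.9 FPKM with DHA and 24.6 FPKM in control cells. Transcripts with short half-lives, which respond to handling of cells and RNA, had a median log2 ratio of 0.37 in the combination over 9 measured genes, of which 5 lay above control and 4 below. Their summed level was 516 FPKM in the combination, 374 FPKM with CCCP, 372 FPKM with DHA and 317 FPKM in control cells, of which DUSP1 alone gave 222 FPKM in the combination and 94.03 FPKM in control cells. EGR1 was the gene at least 2-fold lower, at 0.720 FPKM in the combination and 1.95 FPKM in control cells. The part of these transcripts in the TNFRSF10B and BCL2L1 differences was not tested.

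Among 6401 protein-coding genes that averaged 5 FPKM or more, the 5 closest to TNFRSF10B were CHMP4C, SEPHS2, GRB10, ZXDC and DDX21. Closeness was the Euclidean distance of centred log2 levels over the 4 libraries. CHMP4C was at a distance of 0.0515, with 14.3 FPKM in the combination, 7.22 FPKM with CCCP, 8.86 FPKM with DHA and 8.43 FPKM in control cells. SEPHS2 was at 0.0522 and DDX21 at 0.132. BBC3 ranked 106th, BCL2L1 152nd, PMAIP1 203rd and DDIT3 6337th in this order. The levels were centred but not scaled, so genes with larger differences rank far away even where the order of libraries is alike. In the combination the log2 ratio to control was 3.40 for DDIT3 and 0.76 for TNFRSF10B. With 4 libraries the distance describes only these values.

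Other BH3-only genes, outside the 10 members, differed in both directions. BBC3, which encodes PUMA, was at 13.3 FPKM in the combination, 5.97 FPKM with CCCP, 8.05 FPKM with DHA and 5.91 FPKM in control cells, 2.24-fold (1.98 to 2.55) higher in the combination than in control. PMAIP1, which encodes NOXA, an MCL1 antagonist, was at 16.8 FPKM in the combination, 8.89 FPKM with CCCP, 13.4 FPKM with DHA and 9.47 FPKM in control cells. Both were highest in the combination and second highest with DHA, as was BCL2L1. BMF was at 1.68 FPKM in the combination, 2.75 FPKM with CCCP, 2.38 FPKM with DHA and 3.95 FPKM in control cells, lowest in the combination at 0.425-fold (0.352 to 0.512) of control. BNIP3, a hypoxia-induced mitophagy receptor, was at 26.6 FPKM in the combination, 29.01 FPKM with CCCP, 69.1 FPKM with DHA and 69.5 FPKM in control cells. HRK was at 1.07 FPKM in the combination, 0.611 FPKM with CCCP, 0.517 FPKM with DHA and 0.300 FPKM in control cells, on 40 to 126 reads. The combination was 3.55-fold (2.47 to 5.21) above control in HRK by FPKM alone, and 0.97 on the log2(FPKM + 0.5) scale, just short of 2-fold. Of the 6 genes on this list, all measured, 1 was at least 2-fold higher and 2 lower in the combination on the log2(FPKM + 0.5) scale.

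Other survival genes showed smaller differences. BCL2L2, which encodes BCL-W, was at 9.46 FPKM in the combination, 6.16 FPKM with CCCP, 8.53 FPKM with DHA and 7.95 FPKM in control cells. BCL2L12 was at 8.60 FPKM in the combination, 11.7 FPKM with CCCP, 12.6 FPKM with DHA and 13.5 FPKM in control cells. None of the 3 measured genes of this list reached 2-fold against control.

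Downstream of the receptor and of the mitochondrial pore, most genes lay within 2-fold of control. Of 5 measured genes of the receptor complex, none reached 2-fold in any comparison, and CASP8, the initiator caspase, was 1.31-fold (1.12 to 1.54) higher in the combination. CFLAR, whose product FLIP blocks caspase 8, was at 1.33 FPKM in the combination and 1.05 FPKM in control cells. None of 7 apoptosome and caspase genes reached 2-fold on the log2(FPKM + 0.5) scale, and APAF1, which nucleates the apoptosome, was lowest in the combination at 3.23 FPKM, against 6.57 FPKM in control cells. Among inhibitors of apoptosis, BIRC3 was 3.77-fold (3.07 to 4.64) higher in the combination and 3.49-fold (2.84 to 4.31) higher with CCCP than in control. BIRC5 (survivin), which also serves in mitosis, was at 11.2 FPKM in the combination and 37.6 FPKM in control cells. XIAP was 1.43-fold (1.33 to 1.54) higher in the combination, and 1.01-fold (0.931 to 1.10) and 1.00-fold (0.923 to 1.09) of control with CCCP and with DHA.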

How the data were processed

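Per the labels' protocols, an Illumina TruSeq RNA kit turned 1 ug of total RNA into each of 4 libraries, 1 per group. Values are FPKM of 58735 genes, as deposited by the authors and named in the file headers. Aligner, counter and build were each not given in the sources used here. Every gene identifier and 58708 names matched GENCODE 29 (GRCh38), the source of exon lengths and coordinates. Multiplied by exon length, FPKM came in equal steps within a library, 1 per read, for 100% of nonzero genes (tolerance 0.01 reads), and reads were recovered from this. The deposited scaling between libraries was kept.

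Ratios used log2(FPKM + 0.5) for genes that reached 1 FPKM in any library, with a size rule of 2-fold. Folds with intervals are of FPKM without the pseudocount, with Clopper-Pearson limits for the split of reads between 2 libraries. The 2 compounds were fitted with limma-trend in an additive model, Benjamini-Hochberg adjusted over all genes. A check of the fit on simulated data held additive changes only, so it cannot show how the fit treats departures from additivity. The named genes were all members, up to 4 genes of each further list, and the 5 genes nearest to TNFRSF10B. The family, receptor and CHOP lists could be named in full. Genes overlapping members and pseudogenes were named outside that rule, after their values were seen. Members and lists were chosen with earlier results of these data known. Alternatives were pseudocounts of 0.1 and 1, no filter on low values, a minimum mean of 5 FPKM, equal totals, median of ratios, size rules of 1.5-fold and 4-fold, the added demand that the counting interval excludes 1, limma without trend, and voom. Promoter windows came from RefSeq, for 7 of 10 members. Tools were limma 3.58.1 under R 4.3.3, and scipy 1.17.1, pandas 2.3.3, numpy 2.4.6 and matplotlib 3.10.9 under Python 3.11.15.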

Additional observations from a re-analysis of the deposited data

Results flagged for a closer look

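For 3 members the effect of a compound had opposite directions without and with the other compound, with both counting intervals excluding a ratio of 1. These differences were not tested, since each rests on single libraries. The share of all measured genes that meet this rule was not computed, so the count cannot be called high or low. TNFRSF10B had a log2 ratio for CCCP of 0.73 when added to DHA and -0.19 alone. BCL2L11 had log2 ratios of 0.23 for CCCP added to DHA and -0.52 for CCCP alone, and of 0.53 for DHA added to CCCP and -0.23 for DHA alone. MCL1 had log2 ratios of 0.11 for CCCP added to DHA and -0.19 for CCCP alone, and of 0.18 for DHA added to CCCP and -0.13 for DHA alone.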

How the results depend on the processing

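Counts of members at least 2-fold higher or lower stayed at 0 under every alternative tried except the 1.5-fold rule. That rule gave 2 members higher in the combination than in control, 2 higher than with CCCP and 1 higher than with DHA. Counts past an adjusted p of 0.05 stayed at 0 under all 8 alternatives of the fit, while the number of all genes past it, 13 for CCCP and 14 for DHA, ranged from 0 (no filter, or no trend) to 685 and 533 (voom). With equal totals the departure from additivity was 1.01 log2 for TNFRSF10B and 0.40 for MCL1, while the other departures moved by less than counting error. That scaling moved the median log2 ratio of all genes by at most 0.05 in size. None of 140 recomputed log2 ratios of members left its counting interval. For 3 ratios near 0 the sign differed: with equal totals BCL2L1 with CCCP was at -0.04, TNFRSF10B with DHA at -0.02 and BCL2L11 in the combination at -0.01 (also -0.01 with median of ratios). No paired analysis was possible because each group has 1 library. Depth limits BIK and BCL2A1, which had at most 10 and 2 reads.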
